A study of Mus musculus with 8 samples.

Results

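The genes described here are 40 genes of glycolysis, glucose and lactate transport and the pentose phosphate pathway, with the glyoxalases that clear a glycolytic by-product. They were taken from a fixed list of symbols, and all 40 of 40 were found among the 18790 named genes in the files. They were followed in a pair of sorted cell populations. The cells came from marrow flushed from femurs of C57BL/6 mice that had no treatment and carried the Csf1r-EGFP transgene, a green fluorescent reporter under the promoter of the macrophage growth factor receptor. Cells of the CD11b+ population were positive for CD11b, F4/80 and VCAM1, negative for Ly6G and low for GFP. Cells of the CD11b- population lacked CD11b and were positive for F4/80, GFP and VCAM1. The age and sex of the mice are not given in the labels. There were 4 biological replicates of each population, and every library was made with SmartSeq2, a full-length cDNA method for small amounts of RNA.

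Glycolysis splits glucose into pyruvate with a net gain of ATP, and many steps can be carried out by more than 1 isozyme, each encoded by its own gene. The pentose phosphate pathway draws off glucose 6-phosphate to make NADPH and ribose. In neutrophils that NADPH feeds the oxidase that makes reactive oxygen, and these cells live largely on glycolysis and stored glycogen. Red cells lose their mitochondria as they mature and come to depend on glycolysis alone, with a side branch through 2,3-bisphosphoglycerate that lowers the oxygen affinity of hemoglobin.

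The labels put the name macrophage in quotation marks for both populations, and markers of other cell types were abundant in each. Summed over the 10 neutrophil granule and lineage genes, levels were 127561 to 146605 CPM (counts scaled to a common library total over named genes) in CD11b+ libraries and 626 to 6931 CPM in CD11b- libraries. Summed over the 11 erythroid genes they were 733 to 1180 CPM in CD11b+ and 29464 to 40582 CPM in CD11b-. All 10 neutrophil genes were called higher in CD11b+, and all 11 erythroid, all 7 cell cycle and all 6 tested B precursor genes lower. Cell cycle genes summed to 3824 to 4077 CPM in CD11b+ and 10936 to 14169 CPM in CD11b-, and B precursor genes to 50.3 to 112 CPM in CD11b+ and 796 to 1726 CPM in CD11b-. Of 12 macrophage genes, Adgre1, Vcam1, Csf1r and Itgam were called higher, C1qc was called lower and 7 were not called. They summed to 1032 to 1200 CPM in CD11b+ and 437 to 626 CPM in CD11b-. Itgam encodes CD11b, by which the populations were sorted, so its difference was set by the design. It gave 235 to 346 CPM of the CD11b+ sums and 0.143 to 15.3 CPM of the CD11b- sums. Library totals were 36517568 to 47844998 counts in CD11b+ and 27337092 to 34996595 counts in CD11b-, so 3 counts, the most that a count of 0 allows, corresponded to 0.0627 to 0.110 CPM in a library (counting error only). The marker sums move with the gene groups described below, and their part in those differences was not tested. In bulk samples such as these, fewer cells of a type and less RNA per cell cannot be told apart.

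Genes at many steps of the pathway, among them Gpi1, Aldoa, Pkm, G6pdx and Tkt, were higher in CD11b+ cells. A smaller group of isozymes, transporters and side-branch enzymes, among them Slc2a4, Hk1, Bpgm, Slc16a1 and Hagh, was lower. Of 39 members that passed the filter on low counts, 20 were called higher in CD11b+ and 8 lower, and 11 were not called (edgeR quasi-likelihood test, Benjamini-Hochberg adjusted p under 0.05 over all genes). Among all 11965 genes tested, 14.6% were called higher and 15.0% lower, 29.7% in all. The median log2 fold change of the 39 members was 1.28, beside -0.01 for all genes tested. The CD11b+ libraries all lay above the CD11b- libraries in 24 members and all below them in 8. Over all genes tested those patterns held for 18.1% and 18.4%. Every called member had populations that did not overlap, and 4 members that were not called did not overlap either, namely Fbp1, Eno1, Eno3 and Rpia. Slc2a6 was the member that the filter removed.

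**Figure D1:**
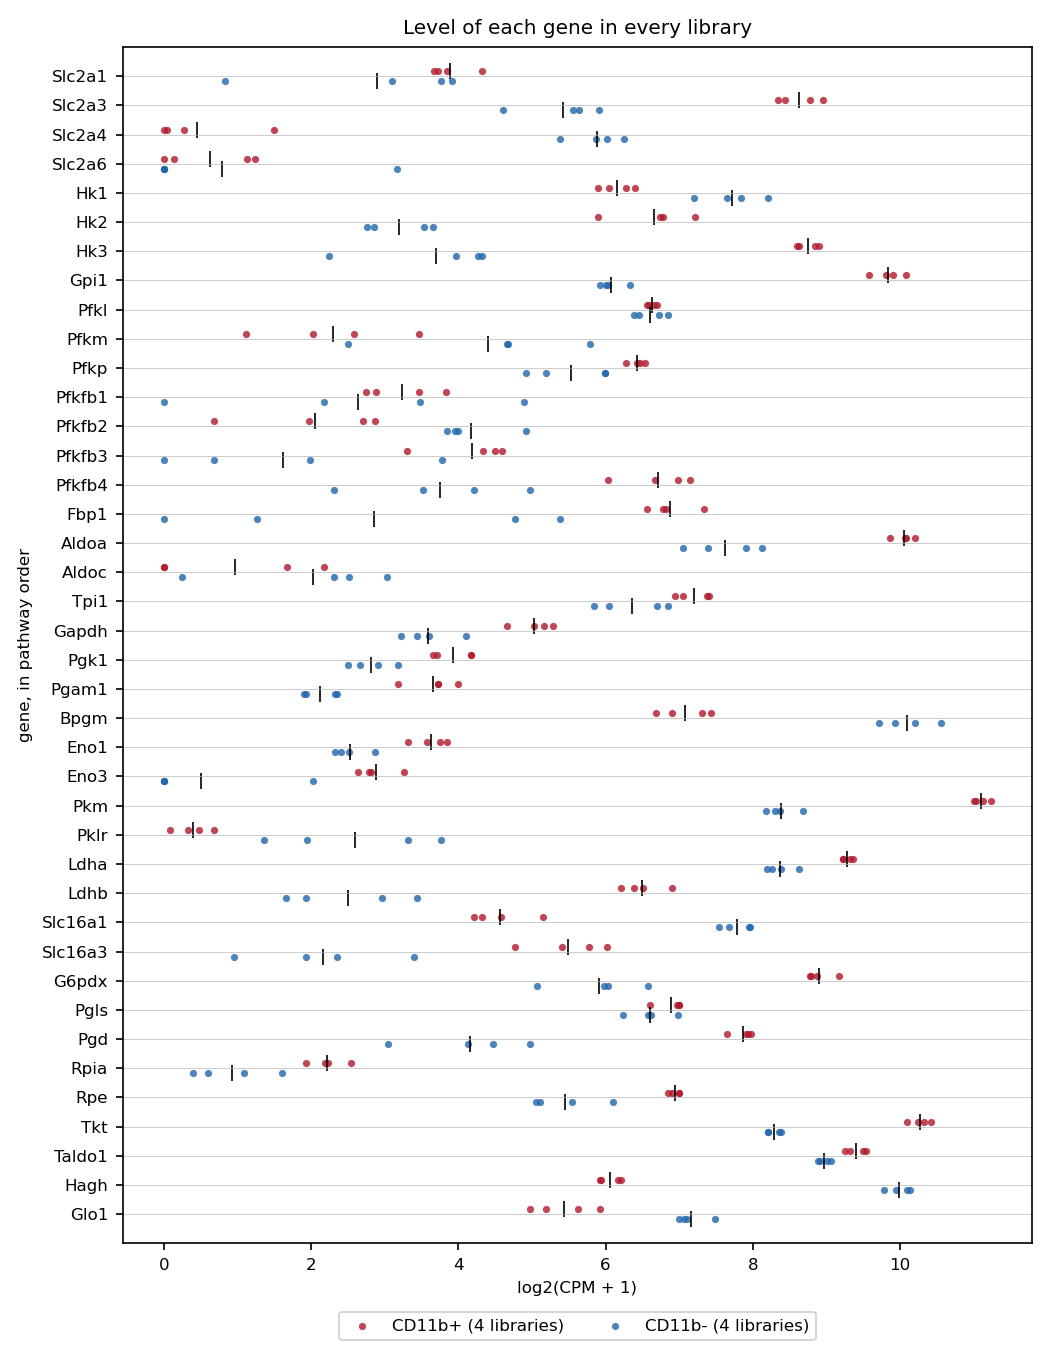
Level of each of the 40 genes in every library, as log2(CPM + 1) on the horizontal axis, with genes in pathway order down the page, 4 CD11b+ libraries in red, 4 CD11b- libraries in blue and a bar at the mean of each. Gpi1, Pkm, Tkt and G6pdx lie to the right in all CD11b+ libraries, and Bpgm, Hagh and Slc16a1 in all CD11b- libraries.

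**Figure D2:**
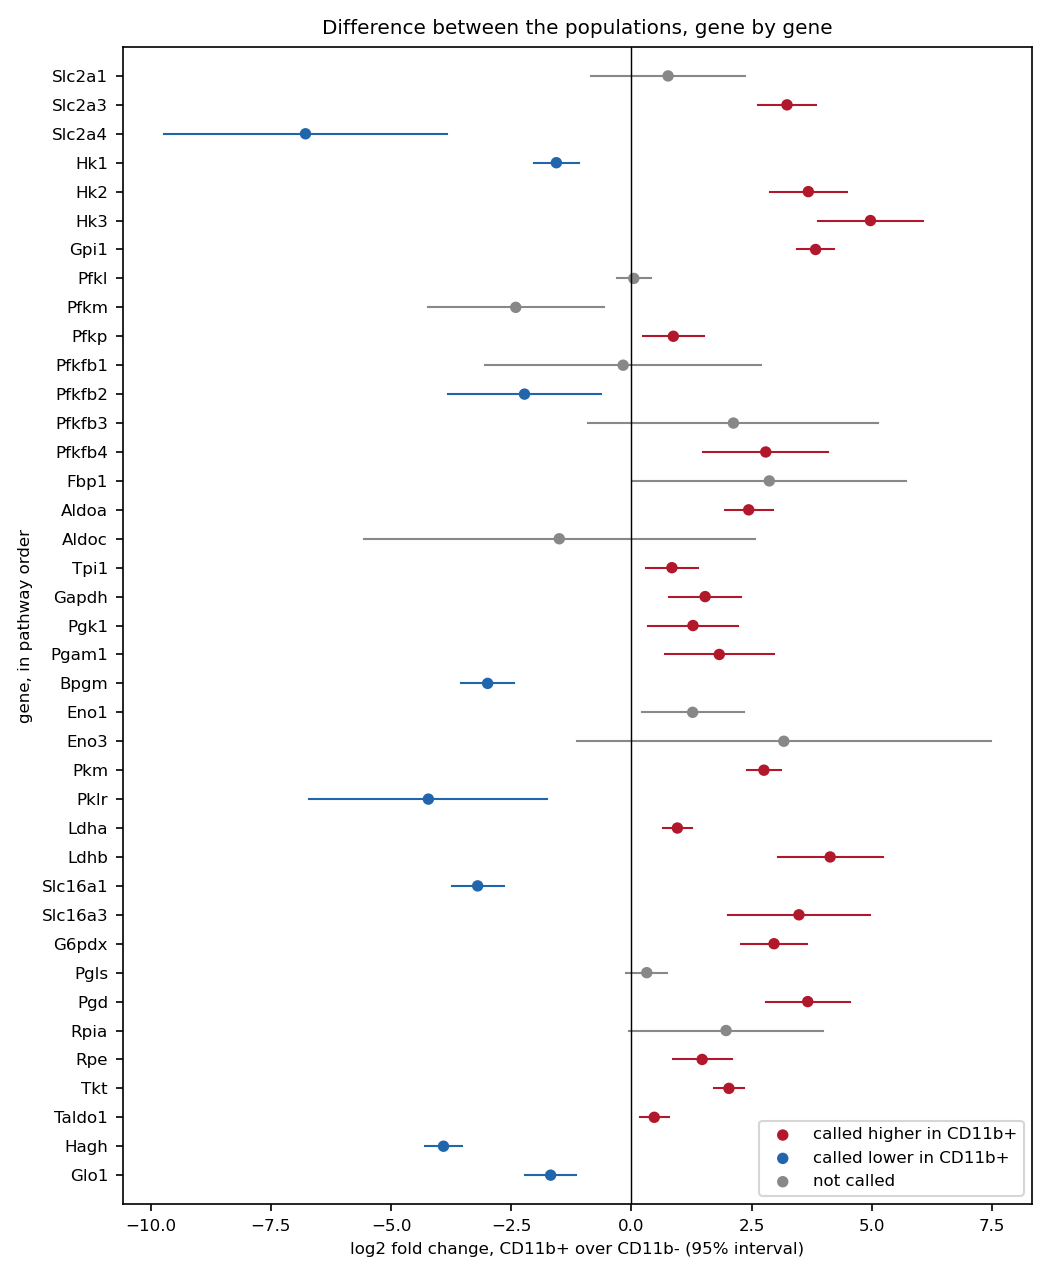
Log2 fold change, CD11b+ over CD11b-, of the 39 tested genes in pathway order, with 95% intervals from the edgeR fit. Red marks the 20 genes called higher in CD11b+, blue the 8 called lower and grey the 11 not called. Slc2a4 at -6.78 and Hk3 at 4.97 are the far ends.

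Glucose enters cells through facilitative transporters, and the populations differed in which of these transcripts they held. Slc2a3, the high-affinity transporter GLUT3, had 322, 436, 495 and 346 CPM in the CD11b+ libraries, against 48.8, 45.9, 23.4 and 58.9 CPM in the CD11b- libraries. Every CD11b+ library was above every CD11b- library, and the difference was 9.43-fold (log2 3.24, SE 0.27, edgeR adjusted p = 1.78e-05). Slc2a4, which encodes GLUT4, the insulin-responsive transporter of muscle and fat, went the other way, with 0.0274, 1.83, 0.209 and 0 CPM in the CD11b+ libraries, against 40.7, 63.6, 57.6 and 75 CPM in the CD11b- libraries. CD11b+ replicate 4 had no read of it and the other CD11b+ libraries had under 2 CPM, whereas no CD11b- library was under 40 CPM. The fitted level was 109.9-fold lower in CD11b+ (log2 -6.78, SE 1.31, edgeR adjusted p = 0.00326), and 658-fold lower without CD11b+ replicate 2 (adjusted p = 0.000176, within 1.03e-05 to 0.0142 over the alternatives). Slc2a1, the widely expressed GLUT1, averaged 14.1 ± 3.33 CPM in CD11b+ cells and 8.74 ± 5.99 CPM in CD11b- cells (SD, n = 4 each), with overlapping libraries (log2 0.76, 95% interval -0.84 to 2.36, edgeR adjusted p = 0.489). Slc2a6, a lysosome-associated transporter, was above 2 CPM in a single library, CD11b- replicate 3 at 8.0 CPM, and was not tested.

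Levels of different genes were compared only after dividing CPM by the length of each gene's combined exons. On that scale a step's isozymes can be given as percentages of their sum, a description with no test. Of the 4 transporters, Slc2a3 made up 89.2%, 93.7%, 94.7% and 91.9% in the CD11b+ libraries, against 32.7%, 22.1%, 14.4% and 24.5% in the CD11b- libraries. Slc2a4 made up 0.229% ± 0.394 in CD11b+ and 64.8% ± 6.88 in CD11b- (SD, n = 4 each). GLUT3 was thus the leading transcript in all 4 CD11b+ libraries and GLUT4 in all 4 CD11b- libraries. The Slc2a1 share overlapped, at 7.06% ± 2.76 in CD11b+ and 9.06% ± 5.62 in CD11b-.

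Hexokinases trap glucose as glucose 6-phosphate, and at this step all 3 genes were called, in opposite directions. Hk3, an isozyme of myeloid cells, had 478, 395, 459 and 385 CPM in the CD11b+ libraries, against 14.6, 19, 18.3 and 3.73 CPM in the CD11b- libraries. It was 31.4-fold higher in CD11b+ (log2 4.97, SE 0.48, edgeR adjusted p = 4.55e-05), with a wide gap between the populations. Hk2, the inducible isozyme that binds mitochondria, had 147, 108, 106 and 58.8 CPM in the CD11b+ libraries, against 11.6, 10.6, 5.75 and 6.22 CPM in the CD11b- libraries, and was 12.8-fold higher (log2 3.68, SE 0.36, edgeR adjusted p = 4.71e-05). CD11b+ replicate 4 was the lowest of its group for Hk2 and still about 5 times the highest CD11b- library. Hk1, the isozyme of brain and red cells, had 65, 58.8, 83.2 and 76.4 CPM in the CD11b+ libraries, against 228, 293, 146 and 200.1 CPM in the CD11b- libraries. It was 2.95-fold lower in CD11b+ (log2 -1.56, SE 0.21, edgeR adjusted p = 0.000316), and CD11b- replicate 3 was the nearest to the CD11b+ range. Per length, Hk3 was 82% ± 2.01 in CD11b+ and 12.6% ± 7.19 in CD11b- of the hexokinase sum, and Hk1 5.89% ± 1.16 in CD11b+ and 82.8% ± 7.25 in CD11b-.

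Hk1 has 2 promoter windows in RefSeq. The one with CACCC-type boxes is shown as an example, picked with the call of the gene known. The other window holds none. The window is chr10:62340372-62340671 on the minus strand of GRCm38.p6, from 250 bases before to 50 bases after the annotated start. Capitals mark the CACCC-type boxes CCACACCC and CCCCACCC on either strand, the kind of element bound by erythroid KLF factors. There were 4 matches in 3 separate runs, since the last 2 overlap, 156 to 46 bases before the start. Such a box stands in 13% of all RefSeq promoter windows of this length and in 15.1% of windows of all genes tested. It stands in 8.33% of windows of members called lower and 16.7% of those called higher. A match is a description of letters, not of a bound site, and a part of KLF factors in the difference was not tested. Counts per gene do not separate the 2 starts.
Hk1: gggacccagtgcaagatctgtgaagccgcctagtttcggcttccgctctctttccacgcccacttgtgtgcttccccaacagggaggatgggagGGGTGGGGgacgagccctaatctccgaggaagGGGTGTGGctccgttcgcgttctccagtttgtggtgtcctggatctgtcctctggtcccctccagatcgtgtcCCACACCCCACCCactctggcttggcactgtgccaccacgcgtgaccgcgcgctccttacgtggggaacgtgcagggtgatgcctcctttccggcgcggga

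**Figure D3:**
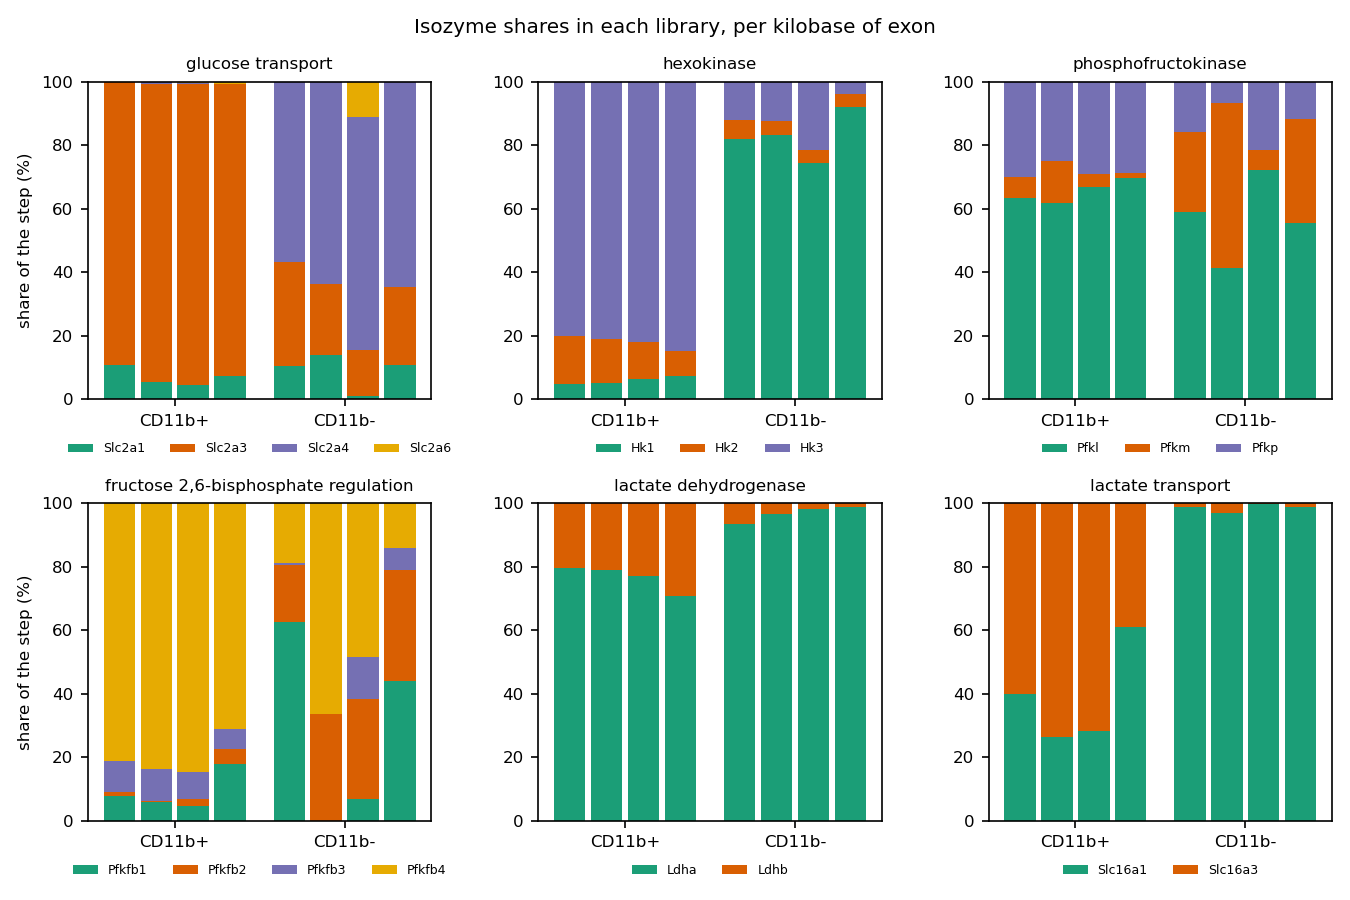
Share of each isozyme in its step, in percent of the step's summed CPM per kilobase of exon, with a bar for each library (CD11b+ replicates 1 to 4 on the left, CD11b- replicates 1 to 4 on the right). The leading colour changes between populations for glucose transport (Slc2a3 and Slc2a4), hexokinase (Hk3 and Hk1) and, in 3 of 4 CD11b+ libraries, lactate transport.

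Gpi1, glucose phosphate isomerase, turns glucose 6-phosphate into fructose 6-phosphate. It had 759, 958, 1078 and 894 CPM in the CD11b+ libraries, against 63.3, 79.7, 59.8 and 64.4 CPM in the CD11b- libraries. The lowest CD11b+ library was about 10 times the highest CD11b- library, and the difference was 14.2-fold (log2 3.83, SE 0.17, edgeR adjusted p = 1.35e-06).

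Phosphofructokinase commits the sugar to glycolysis, and its main transcript did not differ detectably. Pfkl, the liver-type subunit, had 95.7, 93.6, 99.5 and 103 CPM in the CD11b+ libraries, against 114, 86.8, 105 and 82.6 CPM in the CD11b- libraries. The populations overlapped and the interval was narrow (log2 0.05, 95% interval -0.31 to 0.41, edgeR adjusted p = 0.864). Pfkp, the platelet-type subunit, had 91.8, 76.7, 87.3 and 84.9 CPM in the CD11b+ libraries, against 62.6, 29.2, 62.8 and 35.6 CPM in the CD11b- libraries. All CD11b+ libraries were above all CD11b- libraries, by 1.83-fold (log2 0.87, SE 0.28, edgeR adjusted p = 0.0415), but the call was lost in 6 of the 8 fits that left out a library (every CD11b+ library, and CD11b- replicates 2 and 4; adjusted p 0.0166 to 0.906 over all alternatives, a minimum of 2-fold included). Pfkm, the muscle-type subunit, averaged 4.80 ± 3.80 CPM in CD11b+ cells and 26.9 ± 20.5 CPM in CD11b- cells (SD, n = 4 each), and CD11b- replicate 3 at 4.63 CPM lay within the CD11b+ range. It narrowly missed the threshold (log2 -2.41, 95% interval -4.24 to -0.58, edgeR adjusted p = 0.0510) and was called lower without CD11b+ replicate 2 or CD11b- replicate 3 (adjusted p = 0.0333 and 0.0205, within 0.00705 to 0.306 over the alternatives). Per length, Pfkl had the highest mean share in both populations, at 65.3% ± 3.59 in CD11b+ and 56.9% ± 12.6 in CD11b-, and Pfkm led with 51.7% against 41.3% in CD11b- replicate 2.

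The bifunctional PFKFB enzymes make and remove fructose 2,6-bisphosphate, the strongest activator of phosphofructokinase. Pfkfb4 had 126, 100.4, 141 and 64.3 CPM in the CD11b+ libraries, against 10.5, 17.6, 30.3 and 3.95 CPM in the CD11b- libraries. All CD11b+ libraries were higher, by 6.94-fold (log2 2.79, SE 0.58, edgeR adjusted p = 0.00492), and by 10.7-fold without CD11b- replicate 3. Pfkfb2, the form abundant in heart, had 2.90, 0.609, 5.52 and 6.30 CPM in the CD11b+ libraries, against 14.9, 13.3, 29.3 and 14.5 CPM in the CD11b- libraries, with CD11b- replicate 3 well above the rest of its group. It was 4.67-fold lower in CD11b+ (log2 -2.22, SE 0.71, edgeR adjusted p = 0.0406), a call lost in 6 of 8 fits that left out a library (CD11b+ replicates 1 and 3 and every CD11b- library; adjusted p 0.00407 to 0.149 over all alternatives). Pfkfb3, the inducible form, averaged 18.2 ± 6.44 CPM in CD11b+ cells and 4.08 ± 5.92 CPM in CD11b- cells and Pfkfb1, the liver form, 8.86 ± 3.51 CPM in CD11b+ cells and 10.5 ± 12.7 CPM in CD11b- cells (SD, n = 4 each), and both overlapped. Their intervals were wide (for Pfkfb3 log2 2.12, 95% interval -0.90 to 5.14, edgeR adjusted p = 0.290, and for Pfkfb1 log2 -0.17, 95% interval -3.05 to 2.71, edgeR adjusted p = 0.943). Pfkfb4 made up 80.2% ± 6.20 in CD11b+ and 37% ± 24.8 in CD11b- of the per-length sum. In CD11b- replicates 1 and 4 Pfkfb1 led, with 62.4% and 44.1%. The form with the highest mean share in CD11b- moved to Pfkfb1 without CD11b- replicate 2 or 3, and to Pfkfb2 with no length scaling or without CD11b- replicates 1 and 2 together. Fbp1, fructose bisphosphatase, runs this step backwards in gluconeogenesis, and it had 93.5, 112, 109 and 161 CPM in the CD11b+ libraries, against 26.3, 40.7, 0 and 1.39 CPM in the CD11b- libraries. The populations did not overlap but the CD11b- libraries spread widely (log2 2.87, 95% interval 0.03 to 5.70, edgeR adjusted p = 0.126).

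In CD11b- replicates 1 to 4 the neutrophil primary granule gene Mpo stood at 5827, 3966, 1457 and 413 CPM, and Fbp1 was highest in the first pair of these libraries. Without that pair, left out after the data were seen, Fbp1 was called higher (183-fold, adjusted p = 0.00260, within 0.00260 to 0.285 over the alternatives). The pair held 748 and 1425 Fbp1 reads, and CD11b- replicates 3 and 4 held 0 and 38. A larger fold thus follows from leaving the pair out. Of the other neutrophil genes, Elane, Prtn3, Ctsg and Cebpe were also highest in CD11b- replicate 1. Ngp (122, 90.6, 535 and 133 CPM), Camp, Ltf and Lcn2 were highest in CD11b- replicate 3, and Cd177 in CD11b- replicate 4. The neutrophil genes thus did not rank the CD11b- libraries alike. The part of Mpo-rich cells in the Fbp1 reads was not tested.

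Aldolase splits the 6-carbon sugar into triose phosphates, and its gene in both populations was Aldoa. It had 931, 1077, 1181 and 1072 CPM in the CD11b+ libraries, against 239.7, 278, 131 and 166 CPM in the CD11b- libraries. The populations were far apart, by 5.43-fold (log2 2.44, SE 0.22, edgeR adjusted p = 3.28e-05). It supplied 99.9% ± 0.180 in CD11b+ and 97.6% ± 2.44 in CD11b- of the per-length aldolase sum. Aldoc, the brain form, averaged 1.42 ± 1.73 CPM in CD11b+ cells and 4.0 ± 2.90 CPM in CD11b- cells (SD, n = 4 each) and was not called (log2 -1.50, 95% interval -5.57 to 2.57, edgeR adjusted p = 0.606). Tpi1, which interconverts the triose phosphates, had 132, 121, 166 and 169 CPM in the CD11b+ libraries, against 56.2, 103, 64.8 and 114 CPM in the CD11b- libraries, a small gap with all CD11b+ libraries above. The difference was 1.79-fold (log2 0.84, SE 0.24, edgeR adjusted p = 0.0245), and the call was lost when any of CD11b+ replicate 3, CD11b+ replicate 4 and CD11b- replicate 3 was left out, with folds of 1.70 to 1.73 (adjusted p 0.00767 to 0.983 over all alternatives).

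The next steps returned low values. Gapdh, which oxidises glyceraldehyde 3-phosphate and makes NADH, had 24.2, 31.5, 38.1 and 34.6 CPM in the CD11b+ libraries, against 8.35, 16.2, 11.2 and 9.84 CPM in the CD11b- libraries. All CD11b+ libraries were higher, by 2.89-fold (log2 1.53, SE 0.33, edgeR adjusted p = 0.00612). Pgk1, the first ATP-making enzyme of the pathway, had 12.1, 11.6, 17 and 17.1 CPM in the CD11b+ libraries, against 6.51, 8.09, 4.63 and 5.34 CPM in the CD11b- libraries, and was 2.43-fold higher (log2 1.28, SE 0.42, edgeR adjusted p = 0.0452). That call was lost in 7 of 8 fits that left out a library, all but the one without CD11b- replicate 2 (adjusted p 0.000258 to 0.402 over all alternatives). Pgam1, phosphoglycerate mutase, had 15, 8.09, 12.1 and 12.2 CPM in the CD11b+ libraries, against 2.82, 4.09, 3.98 and 2.74 CPM in the CD11b- libraries. The populations did not overlap, and Pgam1 was 3.55-fold higher in CD11b+ (log2 1.83, SE 0.50, edgeR adjusted p = 0.0213). Without CD11b+ replicate 1, 3 or 4 it was 3.28-fold, 3.55-fold and 3.57-fold higher and no longer called (adjusted p 6.24e-06 to 0.124 over all alternatives). Eno1, the ubiquitous enolase, averaged 11.4 ± 1.92 CPM in CD11b+ cells and 4.81 ± 1.03 CPM in CD11b- cells (SD, n = 4 each), with no overlap and no call (log2 1.27, 95% interval 0.22 to 2.33, edgeR adjusted p = 0.0714). It was called higher by DESeq2 and with totals that left out the 20 most abundant genes.

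Most of the coding sequence of these 4 genes is repeated in other annotated genes. In GENCODE M21 the share of a gene's 50-base coding windows also found in another annotated gene was 100% for Pgk1, 100% for Pgam1, 94.2% for Gapdh and 83.3% for Eno1. For Gapdh, 221 other annotated genes shared at least 1 such window. For 25 of the 40 members the share was 0, and for 10 it was over 25%. Gapdh averaged 7.77 ± 1.43 CPM per kilobase of exon in CD11b+ and 2.75 ± 0.822 in CD11b- (SD, n = 4 each). On the same scale Aldoa averaged 287 ± 27.7 CPM per kilobase of exon in CD11b+ and 54.9 ± 18.1 in CD11b-, and Taldo1 312 ± 29.8 CPM per kilobase of exon in CD11b+ and 230.2 ± 12.7 in CD11b-. The handling of reads that map to several places is not given in the sources used here. Levels of these 4 genes, and of Glo1 (78.3% shared), Pfkfb2 (65.8%), Pkm (52.9%), Gpi1 (40.9%), Ldhb (35.6%) and Ldha (28.4%), are therefore uncertain, and the part of shared sequence in the low values was not tested. Over the whole longest transcript the shares were lower, at 68% for Pgk1, 41.5% for Pgam1, 27.8% for Gapdh and 72.2% for Eno1. They were 10.4% for Glo1, 26.1% for Pfkfb2, 34.4% for Pkm, 10.2% for Gpi1, 27% for Ldhb and 16.6% for Ldha.

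**Figure D4:**
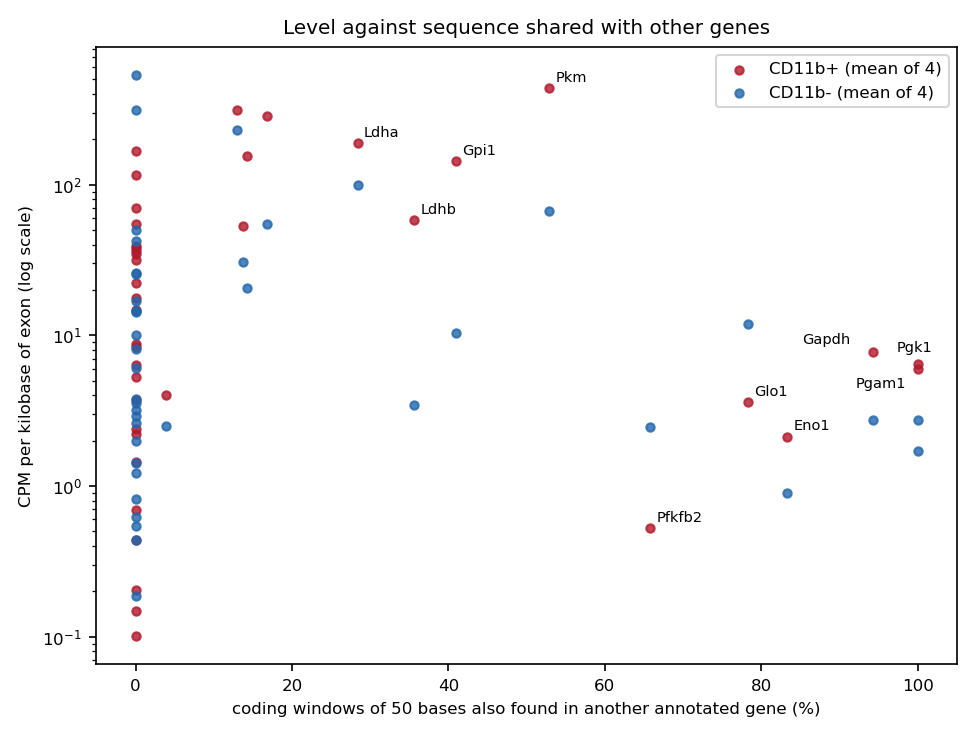
Mean level of each of the 40 genes in CPM per kilobase of exon (log scale) against the share of its 50-base coding windows found in another annotated gene, with CD11b+ means in red and CD11b- means in blue (4 libraries each). Gapdh, Pgk1, Pgam1 and Eno1 lie at the right with low levels in both populations, and Pkm at 52.9% stays high.

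Bpgm makes 2,3-bisphosphoglycerate, the red cell metabolite that binds hemoglobin, and it can also act as a mutase. It had 102, 118, 157 and 172 CPM in the CD11b+ libraries, against 971, 838, 1172 and 1497 CPM in the CD11b- libraries. Every CD11b- library was above every CD11b+ library, and Bpgm was 7.95-fold lower in CD11b+ (log2 -2.99, SE 0.24, edgeR adjusted p = 1.57e-05). Per length it averaged 38.2 ± 9.05 CPM per kilobase of exon in CD11b+ and 312 ± 79.8 in CD11b- (SD, n = 4 each). By group means only Hagh, of the 40 genes, was higher per length than Bpgm in CD11b-, and in CD11b- replicate 2 Taldo1 was slightly higher than Bpgm too.

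Eno3, the muscle enolase, had 5.20, 8.57, 6.04 and 5.91 CPM in the CD11b+ libraries, against 3.06, 0, 0 and 0 CPM in the CD11b- libraries. CD11b- replicate 1 held 87 reads and the other 3 CD11b- libraries held none, and the fit gave no call (log2 3.17, 95% interval -1.13 to 7.47, edgeR adjusted p = 0.266). It was called higher without CD11b- replicate 1 (adjusted p = 0.00167, within 0.00167 to 0.508 over the alternatives). Eno3 had the larger per-length share of the enolase sum in CD11b+ (63.2% ± 5.68 in CD11b+ and 16.7% ± 33.5 in CD11b-), but with no length scaling or with the longest transcript's length Eno1 led in both populations. Of the coding windows of Eno1 83.3% are shared with other genes, so the enolase shares are uncertain.

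Pyruvate kinase makes the last ATP of the pathway. Pkm, whose gene gives the M1 and M2 forms by alternative splicing, had 2043, 2401, 2238 and 2089.7 CPM in the CD11b+ libraries, against 329, 411, 288 and 313 CPM in the CD11b- libraries. Per length it was the highest of the 40 genes in CD11b+, with 438 ± 32.3 CPM per kilobase of exon in CD11b+ and 67 ± 10.6 in CD11b- (SD, n = 4 each). The populations were well apart, by 6.76-fold (log2 2.76, SE 0.16, edgeR adjusted p = 2.55e-06). Gene counts do not separate M1 from M2. Pklr, the liver and red cell pyruvate kinase, had 0.0548, 0.254, 0.606 and 0.394 CPM in the CD11b+ libraries, against 12.6, 1.57, 2.84 and 8.96 CPM in the CD11b- libraries. All CD11b- libraries were above all CD11b+ libraries, though the CD11b- values ranged widely, and Pklr was 18.7-fold lower in CD11b+ (log2 -4.22, SE 1.10, edgeR adjusted p = 0.0162). The call was lost without CD11b+ replicate 2 or CD11b- replicate 1 (adjusted p 2.21e-05 to 0.0893 over all alternatives). Pklr stayed a small part of the step, at 0.0229% ± 0.0163 in CD11b+ and 2.98% ± 2.33 in CD11b- of the per-length sum (SD, n = 4 each). Of its transcript windows 23.2% also lie in the neighbouring gene Hcn3, so some reads cannot be assigned to 1 gene.

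Pklr has 2 RefSeq promoter windows, and the one with a match to the letters bound by GATA factors is shown as an example. Gene and motif were picked with the call known, and a part of GATA factors in the difference was not tested. It is chr3:89135892-89136191 on the plus strand of GRCm38.p6. The motif searched was GATA with A or T before it and A or G after it, on either strand. Capitals mark the single match, 35 bases before the start. Such a match stands in 29.8% of all windows of this length and in 19.4% of windows of all genes tested. It stands in 25% of windows of members called lower and 20.8% of those called higher. A match is a description of letters, not of a bound site.
Pklr: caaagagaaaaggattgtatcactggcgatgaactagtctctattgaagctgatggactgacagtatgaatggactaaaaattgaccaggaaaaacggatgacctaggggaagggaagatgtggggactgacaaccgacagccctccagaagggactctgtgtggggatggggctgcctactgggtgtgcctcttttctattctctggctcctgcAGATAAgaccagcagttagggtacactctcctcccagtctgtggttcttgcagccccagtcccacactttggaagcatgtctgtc

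Lactate dehydrogenase regenerates NAD+ by turning pyruvate into lactate. Ldha, the subunit of glycolytic tissues, had 598, 655, 639 and 599 CPM in the CD11b+ libraries, against 293, 393, 306 and 332 CPM in the CD11b- libraries. The libraries did not overlap and the difference was modest, 1.94-fold (log2 0.96, SE 0.14, edgeR adjusted p = 0.000504). Ldhb, the subunit of oxidative tissues such as heart, had 72.7, 82.9, 89.6 and 118 CPM in the CD11b+ libraries, against 9.79, 6.80, 2.81 and 2.16 CPM in the CD11b- libraries. It was 17.6-fold higher in CD11b+ (log2 4.13, SE 0.49, edgeR adjusted p = 0.000150), and 36.8-fold higher without CD11b- replicates 1 and 2, the pair with most Mpo, which also held the most Ldhb. Ldhb took 23.4% ± 4.13 in CD11b+ and 3.34% ± 2.35 in CD11b- of the per-length sum.

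The Ldha promoter is shown as an example for a classical target gene of the hypoxia factor HIF-1. It was picked with the call of the gene known, and a part of HIF-1 in the difference was not tested. RefSeq has 2 Ldha windows, with 7 and 2 matches, and the one with 7 is printed. It is chr7:46845554-46845853 on the plus strand of GRCm38.p6. Capitals mark the hypoxia response core, ACGTG or GCGTG on either strand. There were 7 matches in 5 separate runs, since CACGTG counts on both strands, from 145 bases before to 37 bases after the start. No other member window held as many matches. The next were 1 window each of Hk1 and Slc16a1, both called lower, with 5. Windows of Gpi1, Tpi1 and Rpe (called higher) and of Bpgm, Glo1 and Pklr (called lower) held none. At least 1 core stood in 72.4% of the 58 windows of the 38 members with a RefSeq entry, in 61.2% of windows of all genes tested and in 43.8% of all windows.
Ldha: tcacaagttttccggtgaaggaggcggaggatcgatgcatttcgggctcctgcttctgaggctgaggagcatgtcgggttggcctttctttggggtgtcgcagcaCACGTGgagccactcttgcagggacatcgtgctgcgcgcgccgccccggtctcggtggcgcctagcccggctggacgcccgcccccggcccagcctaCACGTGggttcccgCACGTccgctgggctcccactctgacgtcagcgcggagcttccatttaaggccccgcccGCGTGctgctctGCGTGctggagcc

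Among members called higher 75% of 24 windows held the core, and among members called lower 58.3% of 12. GATA letters were found in 27.6% of member windows against 19.4% of windows of all genes tested, and the PU.1-type letters GAGGAA in 27.6% against 27.4%. In windows of members called higher and lower, GATA letters stood in 20.8% and 25%, and PU.1-type letters in 16.7% and 25%. The CACCC-type boxes were found in 13.8% of member windows and 15.1% of windows of all genes tested, with 16.7% of windows of members called higher and 8.33% of those called lower. Windows of members called higher held a median of 21 CG pairs, those of members called lower 12, and windows of all genes tested 20. The part of base composition in the matches was not tested. Slc2a3 and Slc2a4 had no entry.

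Lactate leaves or enters cells through monocarboxylate carriers, and the populations held different ones. Slc16a1, the carrier MCT1, had 22.8, 19, 17.5 and 34.3 CPM in the CD11b+ libraries, against 185, 249, 203 and 246 CPM in the CD11b- libraries. It was 9.18-fold lower in CD11b+ (log2 -3.20, SE 0.24, edgeR adjusted p = 1.04e-05), with no overlap. Slc16a3, the carrier MCT4 of strongly glycolytic cells, had 41.4, 64, 53.7 and 26.2 CPM in the CD11b+ libraries, against 2.82, 9.49, 0.927 and 4.10 CPM in the CD11b- libraries. It was 11.2-fold higher in CD11b+ (log2 3.49, SE 0.66, edgeR adjusted p = 0.00279), and 18.8-fold higher without CD11b- replicate 2, the highest of its group. The Slc16a3 share of the per-length sum was 60.2%, 73.7%, 71.9% and 38.9% in the CD11b+ libraries, against 1.25%, 3.08%, 0.378% and 1.36% in the CD11b- libraries. MCT4 led in 3 of the 4 CD11b+ libraries, MCT1 in CD11b+ replicate 4 and in all CD11b- libraries. Bsg, the chaperone basigin that carries MCT1 and MCT4 to the membrane, averaged 352 ± 24.4 CPM in CD11b+ cells and 3187 ± 232 CPM in CD11b- cells (SD, n = 4 each), 8.83-fold lower in CD11b+ (log2 -3.14, SE 0.15, edgeR adjusted p = 1.39e-06).

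The oxidative branch of the pentose phosphate pathway was higher in CD11b+ at its NADPH-making steps. G6pdx, the rate-limiting glucose 6-phosphate dehydrogenase, had 438, 575, 468 and 441 CPM in the CD11b+ libraries, against 64.3, 94.2, 61.8 and 32.4 CPM in the CD11b- libraries. No library overlapped, and the difference was 7.82-fold (log2 2.97, SE 0.30, edgeR adjusted p = 6.42e-05). Pgd, the second NADPH-making enzyme, had 199.9, 238, 249.5 and 245 CPM in the CD11b+ libraries, against 30.5, 16.4, 21.1 and 7.28 CPM in the CD11b- libraries. The lowest CD11b+ library was over 6 times the highest CD11b- library, and the difference was 12.7-fold (log2 3.67, SE 0.39, edgeR adjusted p = 8.12e-05). Pgls, the lactonase between them, averaged 118 ± 14.7 CPM in CD11b+ cells and 97.7 ± 20.9 CPM in CD11b- cells (SD, n = 4 each), with overlap and no call (log2 0.32, 95% interval -0.10 to 0.74, edgeR adjusted p = 0.254).

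In the non-oxidative branch 3 of 4 genes were called higher. Tkt, transketolase, had 1093, 1366, 1284 and 1214 CPM in the CD11b+ libraries, against 326, 294, 333 and 295 CPM in the CD11b- libraries. Replicates were tight in both populations and the difference was 4.08-fold (log2 2.03, SE 0.14, edgeR adjusted p = 7.18e-06). Taldo1, transaldolase, had 606, 639, 739.8 and 723 CPM in the CD11b+ libraries, against 473, 512, 533 and 481 CPM in the CD11b- libraries, a small difference of 1.39-fold (log2 0.48, SE 0.13, edgeR adjusted p = 0.0234). The call was lost without CD11b+ replicate 3 or CD11b- replicate 1, at 1.36-fold and 1.35-fold (adjusted p 0.00217 to 1.0 over all alternatives). Rpe, the epimerase, had 127, 127, 119 and 115 CPM in the CD11b+ libraries, against 45.5, 32.1, 67.5 and 33.4 CPM in the CD11b- libraries, and was 2.77-fold higher (log2 1.47, SE 0.27, edgeR adjusted p = 0.00255). Of its transcript windows 19% also lie in the neighbouring gene Kansl1l. Rpia, the isomerase that yields ribose 5-phosphate, averaged 3.71 ± 0.824 CPM in CD11b+ cells and 1.0 ± 0.778 CPM in CD11b- cells (SD, n = 4 each), with no overlap and no call (log2 1.97, 95% interval -0.05 to 3.99, edgeR adjusted p = 0.140).

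The glyoxalases, which detoxify the methylglyoxal that leaks from the triose phosphates, were both lower in CD11b+. Hagh, glyoxalase II, had 59.8, 60.5, 71.2 and 73.2 CPM in the CD11b+ libraries, against 877, 1089, 1126 and 980.5 CPM in the CD11b- libraries. The CD11b- libraries were all more than 11 times any CD11b+ library, and Hagh was 15-fold lower in CD11b+ (log2 -3.91, SE 0.17, edgeR adjusted p = 1.35e-06). Per length it was the highest of the 40 genes in CD11b-, with 34.7 ± 3.66 CPM per kilobase of exon in CD11b+ and 534 ± 59 in CD11b- (SD, n = 4 each). Glo1, glyoxalase I, had 48.4, 35.6, 30.2 and 59.9 CPM in the CD11b+ libraries, against 132, 179, 126 and 137 CPM in the CD11b- libraries, without overlap, and was 3.20-fold lower (log2 -1.68, SE 0.24, edgeR adjusted p = 0.000459).

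Across the 10 steps with at least 2 listed genes, the leading gene by mean share differed between populations at 4. These were glucose transport, hexokinase, enolase and lactate transport. For enolase this held with combined exon lengths, but Eno1 led in both populations with no length scaling or with the longest transcript's length. The enolase shares are also uncertain because 83.3% of the coding windows of Eno1 are shared with other genes. In single libraries Eno3 led in CD11b- replicate 1 (66.9%) and Slc16a1 in CD11b+ replicate 4 (61.1%). By group means Pfkl, Pfkfb4, Aldoa, Bpgm, Pkm and Ldha led their steps in both, though Pfkm led in CD11b- replicate 2 and Pfkfb1 in CD11b- replicates 1 and 4. At the phosphoglycerate mutase step, where every coding window of Pgam1 is shared with other genes, Bpgm made up 86.1% ± 4.74 in CD11b+ and 99.4% ± 0.226 in CD11b- of the per-length sum (SD, n = 4 each).

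Neighbouring pathways were followed in a second list of 84 genes, of which 80 were found and 65 tested. In CD11b+ 21 were called higher and 6 lower, beside 14.6% and 15.0% of all genes tested, shares against which the counts of the smaller groups below also stand. Slc2a10, Pgk2, G6pc and Phkg1 were not analysed here. Of 15 glycogen genes tested, 7 were called higher and the other 8 were not called. Gys1, glycogen synthase, averaged 152 ± 10.3 CPM in CD11b+ cells and 14.1 ± 3.96 CPM in CD11b- cells (SD, n = 4 each), 11.1-fold higher (log2 3.47, SE 0.22, edgeR adjusted p = 3.88e-06). Pygl, the phosphorylase that releases glucose from glycogen, averaged 277 ± 65.6 CPM in CD11b+ cells and 15.3 ± 7.90 CPM in CD11b- cells and was 18.5-fold higher (log2 4.21, SE 0.41, edgeR adjusted p = 4.43e-05). The others called were Gbe1, the branching enzyme (8.40-fold, and 12.8-fold without CD11b- replicate 1), Ugp2 (7.45-fold), Phkb (5.97-fold), Gyg, the glycogenin primer (5.84-fold), and Pgm2 (3.96-fold). Making and breaking enzymes were thus both higher.

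Of 4 gluconeogenesis genes tested, Pcx and Pck2 were lower in CD11b+ and G6pc3 was higher. Pcx, pyruvate carboxylase, averaged 3.76 ± 1.44 CPM in CD11b+ cells and 101 ± 27.2 CPM in CD11b- cells (SD, n = 4 each), 26-fold lower (log2 -4.70, SE 0.35, edgeR adjusted p = 9.59e-06). Pck2, the mitochondrial PEP carboxykinase, was 8.48-fold lower (edgeR adjusted p = 0.000105). G6pc3, the ubiquitous glucose 6-phosphatase needed by neutrophils, was 2.41-fold higher (edgeR adjusted p = 0.00185). Pyruvate entry into mitochondria was mixed, with 3 of 12 tested genes higher (Pdha1, Pdp1 and Mpc1) and 2 lower (Pdhx and Mpc2). The subunits of the mitochondrial pyruvate carrier went opposite ways, Mpc1 2.41-fold higher (edgeR adjusted p = 0.00291) and Mpc2 1.64-fold lower (edgeR adjusted p = 0.00307). The calls of Pdha1 (without CD11b+ replicate 2), Pdhx (without CD11b+ replicate 1 or 2) and Pdp1 (in all but the fits without CD11b- replicate 1 or 2) were lost in fits that left out a library, at adjusted p from 0.0512 to 0.0757.

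**Figure D5:**
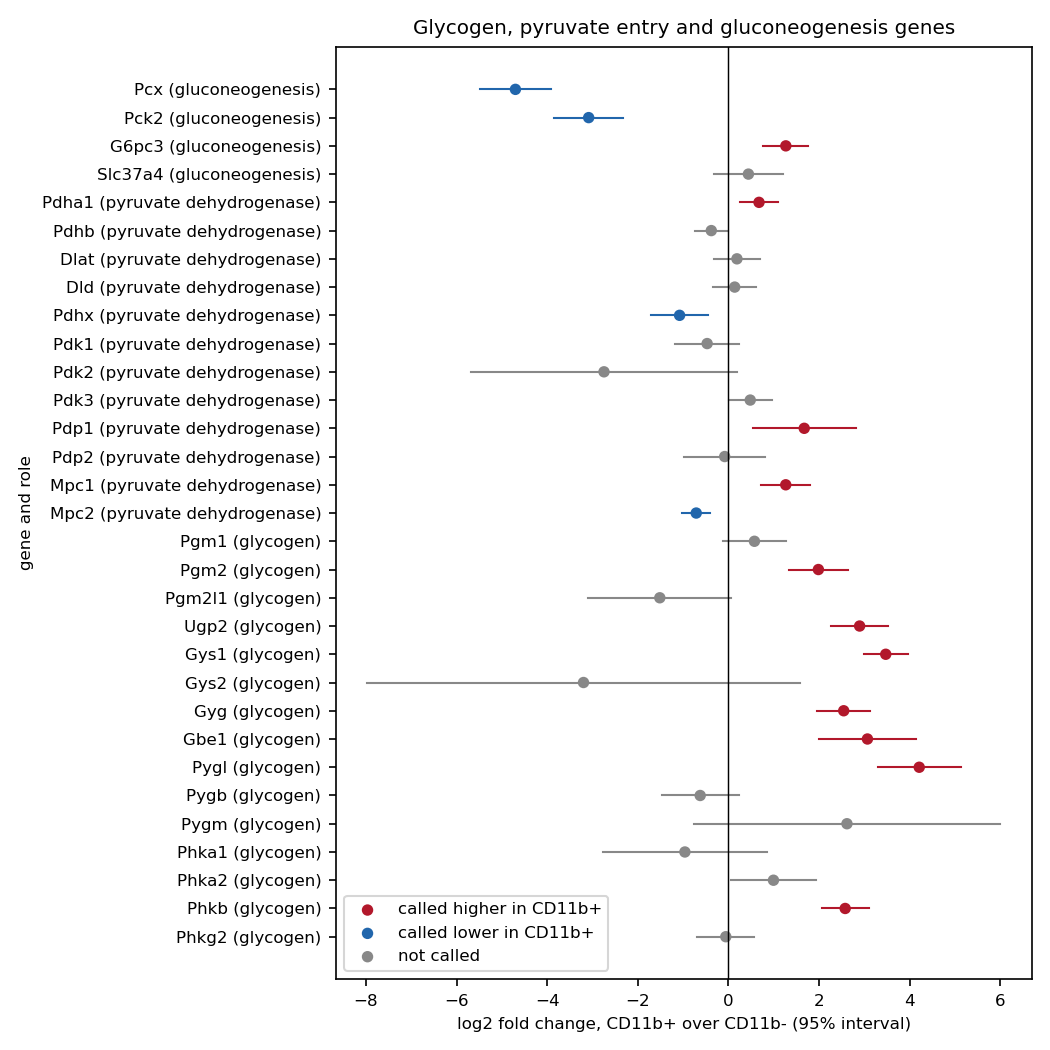
Log2 fold change, CD11b+ over CD11b-, with 95% intervals from the edgeR fit, of the tested genes of gluconeogenesis, pyruvate entry and glycogen metabolism. Red marks genes called higher in CD11b+, blue lower and grey not called, and 7 of the 15 glycogen genes are red and 8 grey.

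Among 11 other isozymes and partners tested, 3 were higher and, with Bsg, 2 lower. Adpgk, a glucokinase that uses ADP in place of ATP, averaged 1231 ± 322 CPM in CD11b+ cells and 48.1 ± 20.1 CPM in CD11b- cells (SD, n = 4 each), 26-fold higher (log2 4.70, SE 0.39, edgeR adjusted p = 1.77e-05). Ldhc, the testis lactate dehydrogenase, averaged 40 ± 8.23 CPM in CD11b+ cells and 0.500 ± 0.499 CPM in CD11b- cells and was 82.9-fold higher (log2 6.37, SE 0.98, edgeR adjusted p = 0.000802; 135-fold without CD11b- replicate 1). H6pd, the dehydrogenase of the endoplasmic reticulum, was 14.2-fold higher (edgeR adjusted p = 0.0394). It was 50.8-fold higher without CD11b- replicate 3, and not called in 6 of the other 7 fits that left out a library, all but that without CD11b- replicate 4. Minpp1, a phosphatase that also acts on 2,3-bisphosphoglycerate, was 3.84-fold lower (edgeR adjusted p = 0.000517).

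Of 9 genes for entry of other hexoses and glycerol phosphate, Khk, Galt, Gpd1l and Gpd2 were called higher and the other 5 were not called. Gpd2, the mitochondrial glycerol phosphate dehydrogenase, was 4.30-fold higher (edgeR adjusted p = 9.10e-05), and Khk, the fructokinase, 2.47-fold higher (edgeR adjusted p = 0.0122). Galt lost its call without CD11b+ replicate 1 or 4, and Gpd1l without CD11b+ replicate 1, 3 or 4 or CD11b- replicate 1 or 3 (adjusted p from 0.0536 to 0.0978). Of 12 regulators tested, 3 were called higher and the other 9 were not called. Hif1a, the oxygen-regulated subunit of HIF-1, averaged 77.7 ± 11.9 CPM in CD11b+ cells and 35.6 ± 10.8 CPM in CD11b- cells (SD, n = 4 each), 2.27-fold higher (log2 1.18, SE 0.24, edgeR adjusted p = 0.00421). Vhl, which marks HIF for destruction, was 2.52-fold higher (edgeR adjusted p = 0.0438), and Mlx, a partner of the glucose-sensing factors, 2.45-fold higher (edgeR adjusted p = 0.00669). The Vhl call was lost in 7 of the 8 fits that left out a library, all but that without CD11b- replicate 2. Myc, a driver of growth and glycolytic genes, averaged 159 ± 41.3 CPM in CD11b+ cells and 154 ± 62.6 CPM in CD11b- cells and was not called (log2 0.09, 95% interval -0.58 to 0.75, edgeR adjusted p = 0.869). Of other sugar transporters, Slc2a8 and Slc2a9 were tested and did not pass (edgeR adjusted p = 0.753 for Slc2a8, and for Slc2a9 edgeR adjusted p = 0.0783, or 0.00794 without CD11b- replicate 1). Without CD11b- replicates 1 and 2, the pair with most Mpo, the fold higher in CD11b+ was 341 for Ldhc, 19.3 for Slc16a3, 18.6 for Gbe1 and 7.63 for Pdp1. Among CD11b- libraries Ldhc, Gbe1 and Pdp1 were highest in that pair, and Slc16a3 in CD11b- replicate 2, so leaving the pair out raises these folds. In the same fit H6pd fell to 9.17-fold and lost its call (edgeR adjusted p = 0.171). Galt and Gpd1l lost theirs too (edgeR adjusted p = 0.0845 and 0.108).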

How the data were processed

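The authors deposited whole-number counts per gene symbol for each of the 8 libraries, and a table of CPM over all of them. Counts divided by their totals gave the deposited CPM back within 5e-04. The build mm9 and the tools HTSeq 0.10.0, TopHat2 and DESeq2 are named, per the submitters' processing notes, without saying what each did. The treatment of multiply mapped reads and of strand is not given in the sources used here, and SmartSeq2 does not mark strand. Of 18817 rows, 27 carry numbers in place of symbols (0.205% to 0.514% of counts) and were left out.

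Counts were fitted in R 4.3.3 by edgeR 4.0.16 after TMM scaling. Genes had to pass filterByExpr (minimum count 10, minimum total 15), and the quasi-likelihood test, with no covariate, was adjusted by Benjamini-Hochberg over all 11965 genes tested, at 0.05. Folds were fitted with a prior count of 0.125, and each SE is the log2 fold change over the square root of F. The p-values rest on the spread among biological replicates. CPM per kilobase used GENCODE M21 (GRCm38) union exon lengths, matched by symbol, and promoters came from RefSeq (GRCm38.p6). No coordinates of mm9 are given.

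Alternatives were DESeq2 1.42.0, other scalings and filters, a replicate block, a 2-fold minimum, leaving out each library and, added after seeing the data, leaving out the 2 CD11b- libraries highest in Mpo. The members and lists were chosen with earlier results of these data known, and some genes are not reported here. All members are named, and genes outside them only when called, as the most abundant of their sublist or where a count needs them.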

Additional observations from a re-analysis of the deposited data

Results flagged for a closer look

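Each member was examined for a library far from the other 3 of its group (Dixon's ratio of gap to range, at its 95% critical value). Of 80 groups 5 were singled out, and chance alone singles out about 1 in 20. Slc2a4 stood at 1.83 CPM in CD11b+ replicate 2, above the rest of its group. Slc2a6 stood at 8.0 CPM in CD11b- replicate 3, with no read in the other CD11b- libraries. Pfkfb2 stood at 29.3 CPM in CD11b- replicate 3. Eno3 stood at 3.06 CPM in CD11b- replicate 1, with no read in the other CD11b- libraries. Pgls stood at 96.5 CPM in CD11b+ replicate 1, below the rest of its group. CD11b- replicate 3 appears 2 times in this list.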

How the results depend on the processing

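No fold change of a member or neighbouring gene changed direction with a call in any alternative. Of the 28 called members, 18 were called under every alternative run, and Gapdh, Ldha and Rpe under all but the minimum of 2-fold. The calls of Pfkp, Pfkfb2, Tpi1, Pgk1, Pgam1, Pklr and Taldo1 depended on single libraries. Against a minimum of 2-fold, members called higher fell to 12, neighbouring genes called higher to 10 and all genes called to 1774, because that test asks for a larger change. Leaving out each library in turn gave 15 to 19 members called higher and 6 to 8 lower, 16 to 21 neighbouring genes higher and 5 to 7 lower, and 3035 to 3418 genes in all. DESeq2 called 31 members, the 28 and Pfkm, Eno1 and Rpia, and 4734 of 13691 genes in all. Without the 2 CD11b- libraries highest in Mpo, 23 members were called, 21 of them shared, with those 7 lost and Fbp1 and Eno3 gained. That fit called 3305 of 13320 genes in all. With the replicate number as a block, 18 members were called higher and 7 lower, and Pgk1, Pgam1 and Pklr were lost. The block fit called 3195 of 11965 genes in all. Same-numbered libraries deviated together hardly at all (correlations 0.00295 to 0.0430). That check cannot show whether same-numbered libraries came from the same mice, and the main fit treated them as unpaired. The leading gene differed at 3 to 5 steps over the alternatives, against 4. Members near 0 CPM in 1 population, such as Slc2a4, Eno3 and Pklr, have the least certain folds.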
